A study of Mus musculus with 6 samples.

Results

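The CC chemokines are small secreted proteins named for adjacent cysteines near the start of the mature protein, and they draw leukocytes that carry matching CC receptors. This account follows 10 of their genes, Ccl2, Ccl3, Ccl4, Ccl5, Ccl7, Ccl8, Ccl12, Ccl17, Ccl19 and Ccl22, taken by gene symbol from count tables of 55536 annotated genes. The 10 symbols matched 11 rows, because Ccl19 is annotated at 2 loci, and 9 of the 10 genes had enough counts to be tested. The tables come from 6 B16 tumors, 3 grown from vector control cells and 3 from ATM KO cells. B16 is a mouse melanoma line, and about 100000 of these cells were placed under the skin of C57BL/6J mice, with whole tumor RNA taken on day 13. No group received a further treatment per the labels, which give no age of the mice and do not say how the gene was disrupted, whether the ATM KO cells were a clone or whether each tumor had its own mouse. Genotype and the cell line that carries it therefore cannot be told apart, and p-values measure the spread between these tumors.

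In tumors, the members fall into groups by the cells they call. Ccl2, Ccl7 and Ccl12 act on the monocyte receptor Ccr2, and Ccl8 in the mouse acts on Ccr8. Ccl3 and Ccl5 act on Ccr1, a receptor of monocytes and macrophages, and Ccl3, Ccl4 and Ccl5 draw macrophages and T cells. Ccl17 and Ccl22 call cells with Ccr4, among them regulatory T cells, and Ccl19 acts on Ccr7, which leads dendritic cells and naive T cells toward lymph nodes. Macrophages, dendritic cells, T cells, NK cells, stroma and tumor cells can each make some of these ligands.

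Counts on genes ranged from 22101124 to 29037715 per tumor, and the 10 genes together took 0.0115% to 0.0245% of them. Atm itself was at 105 ± 8.09 CPM (counts scaled to a common library size, with TMM factors) in control and 112 ± 18.0 CPM in ATM KO tumors (SD, n = 3 per group, edgeR adjusted p = 0.707). A count over the whole gene does not check the genotype labels, since the mice contribute cells with their own Atm and the site of the disruption is not given. The melanocyte genes Tyr, Dct, Pmel, Mlana, Tyrp1, Mitf and Sox10 summed to 18811 to 27174 CPM, so the label melanoma fits the markers in every tumor. Host tissue varied widely: 6 skeletal muscle genes summed to 17.4 and 53.5 CPM in control tumors 1 and 2, 6483 CPM in control tumor 3 and 512 to 6100 CPM in the ATM KO tumors. In such bulk RNA, fewer cells of a type and less RNA per cell cannot be told apart.

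Of the 9 tested CC chemokines, Ccl5 was higher in ATM KO tumors and none was lower by the edgeR test. Over all 15696 genes tested, 4.96% were called in either direction and 2.21% as higher. A count of 1 in 9 is too small to read against those shares. Log2 fold changes (ATM KO minus control) were positive for Ccl3, Ccl4 and Ccl5 and negative for the other 6. Their median was -0.34, against -0.0058 over all genes tested. The count with an unadjusted p below 0.05 was again 1 higher and 0 lower, where 23% of all genes tested were below it in either direction. DESeq2 called 1 member higher and limma-voom 0, against 5.86% and 1.97% of all genes called higher by these tools. Ccl17 got no adjusted p from DESeq2 and could not be called by it.

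**Figure D1:**
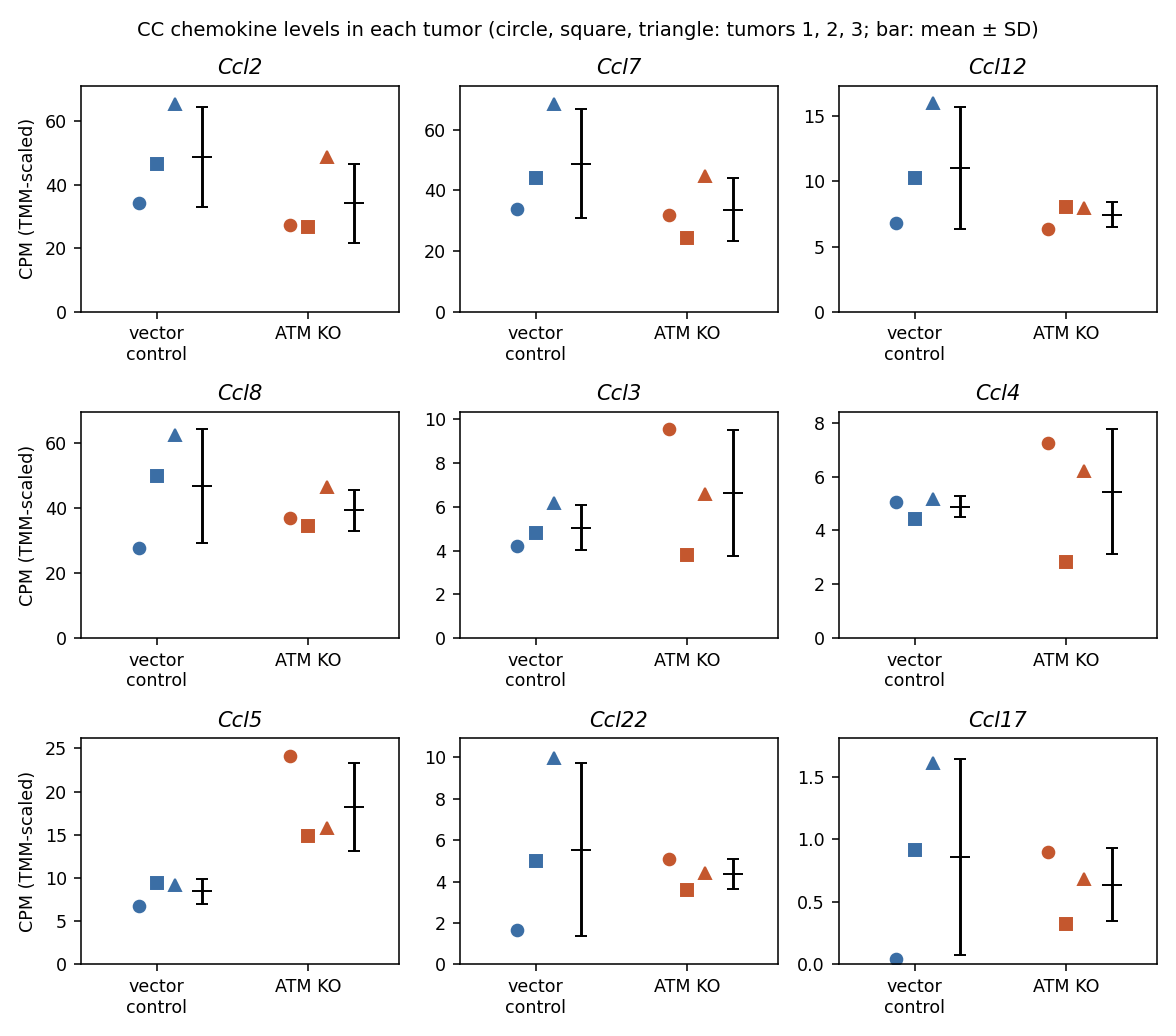
CPM of the 9 tested members in each tumor, with each panel on its own linear axis from 0; circles, squares and triangles are tumors 1, 2 and 3 of a group and the bars give the mean ± SD (n = 3). Ccl5 is the member whose groups do not overlap, and control tumor 3 holds the highest value of Ccl2, Ccl7, Ccl8, Ccl12, Ccl17 and Ccl22.

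Ccl5, made by activated T cells and NK cells among others, lies on chromosome 11 (83525778 to 83530518, GRCm38). Its level was 6.77, 9.37 and 9.23 CPM in control tumors 1, 2 and 3, from 153, 205 and 223 counts. In ATM KO tumors 1, 2 and 3 it was 24.1, 14.8 and 15.8 CPM, from 587, 414 and 463 counts. Every ATM KO tumor lay above every control tumor, which held in either direction for 29.7% of all genes tested. The log2 fold change was 1.11 ± 0.23 (SE, 95% interval 0.55 to 1.66, 2.16-fold), with an edgeR adjusted p of 0.0495. The value sits at the threshold: the call ended when any of the 6 tumors was left out, with log2 fold changes from 0.85 without ATM KO tumor 1 to 1.24 without ATM KO tumor 2 and adjusted p from 0.0578 to 0.159. It also ended with limma-voom (0.0679), and DESeq2 kept it (0.000637).

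T cell markers were also higher on average in ATM KO tumors. The median log2 fold change of the 11 T cell genes was 0.79, and 10 of them were above 0. In edgeR 0 of them passed after adjustment and 6 had p below 0.05 before it, while DESeq2 called 3, all higher. Over all genes tested, 10.6% were higher with an unadjusted p below 0.05 in edgeR and 5.86% were called higher by DESeq2. Their summed level was 45.3 to 65.4 CPM in control and 64.6 to 129 CPM in ATM KO tumors, with no gene of the list at 0. ATM KO tumor 1, the tumor with the most Ccl5, was also the one with the highest T cell sum. The 6 NK cell genes summed to 9.95 to 28.0 CPM and 20.3 to 36.5 CPM. Set against the mean log2 level of the T cell list, Ccl5 stood at 1.00, 0.96 and 0.82 in control and at 1.26, 1.53 and 1.16 in ATM KO tumors. The groups stay apart on that scale, at a mean difference of 0.40, smaller than the 1.11 of the unscaled level. So do those of Ccl2, Ccl3, Ccl4, Ccl7, Ccl8 and Ccl12, all lower in ATM KO tumors. The mean log2 level of the T cell list was itself 0.69 higher in ATM KO tumors, and subtracting it moves every gene down by that amount. On the unscaled level the groups of Ccl3 and Ccl4 overlapped and their log2 fold changes were positive. The share of all genes tested that lie apart on the T cell scale was not computed. Against the NK cell list the Ccl5 groups overlapped. The part of T and NK cells in the Ccl5 difference was not tested.

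Ccl3 and Ccl4, neighbors on the same chromosome as Ccl5, were not called. Ccl3 (83647844 to 83649355) was at 4.20, 4.80 and 6.17 CPM in control and 9.55, 3.79 and 6.60 CPM in ATM KO tumors 1, 2 and 3. Its neighbor Ccl4 (83662584 to 83664683) was at 5.04, 4.44 and 5.17 CPM in control and 7.26, 2.83 and 6.23 CPM in ATM KO tumors. Both were highest in ATM KO tumor 1 and lowest in ATM KO tumor 2, so the ATM KO group spanned the whole control range. Log2 fold changes were 0.39 ± 0.35 for Ccl3 (95% interval -0.45 to 1.24, edgeR adjusted p = 0.577) and 0.15 ± 0.35 for Ccl4 (-0.68 to 0.99, adjusted p = 0.856). Without ATM KO tumor 1 the values were 0.034 for Ccl3 and -0.11 for Ccl4, and without ATM KO tumor 2 they were 0.67 and 0.46. The ratio of Ccl3 to Ccl4 counts stayed between 0.833 and 1.34 in the 6 tumors.

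The monocyte attractants Ccl2, Ccl7 and Ccl12 were lower on average in ATM KO tumors, with groups that overlapped and no call. Ccl2 (chromosome 11, 82035571 to 82037453) was at 34.1, 46.3 and 65.4 CPM in control tumors and 27.2, 26.7 and 48.5 CPM in ATM KO tumors. Ccl7 (82045712 to 82047525), the next member along the chromosome, was at 33.8, 43.9 and 68.6 CPM and at 32.1, 24.2 and 44.7 CPM. These genes kept close to each other in every tumor, with 0.907 to 1.18 Ccl7 counts per Ccl2 count. Ccl12 (82101845 to 82103400), a mouse ligand of Ccr2, was at 6.81, 10.2 and 16.02 CPM and at 6.36, 8.05 and 7.94 CPM. In each of these genes control tumor 3 was the highest of all 6. Log2 fold changes were -0.51 ± 0.33 for Ccl2 (95% interval -1.33 to 0.31, edgeR adjusted p = 0.434), -0.54 ± 0.33 for Ccl7 (-1.35 to 0.28, 0.408) and -0.57 ± 0.31 for Ccl12 (-1.32 to 0.18, 0.346). Leaving out control tumor 3 brought them to -0.23, -0.20 and -0.18. The lowest values on leaving out a tumor were -0.85 for Ccl2 and -0.79 for Ccl7 without ATM KO tumor 3, and -0.82 for Ccl12 without control tumor 1.

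Ccl8, which lies next to Ccl12 on chromosome 11 and on the same strand, had no call either. Ccl8 (82115185 to 82116799) was at 27.8, 49.9 and 62.6 CPM in control and 37.1, 34.4 and 46.5 CPM in ATM KO tumors, the ATM KO values lying inside the control range. Its log2 fold change was -0.25 ± 0.30 (95% interval -0.99 to 0.49, edgeR adjusted p = 0.695), and 0.028 without control tumor 3. RefSeq promoters (GRCm38.p6, 250 bases before to 50 after the start site) were matched for 6 of the 10 members: Ccl3, Ccl8, Ccl12, Ccl17, Ccl19 and Ccl22. The windows of Ccl8 (chr11:82114935-82115234, plus strand) and Ccl12 (chr11:82101595-82101894, plus strand) are shown because these neighbors had similar patterns over the 6 tumors (root mean square difference of centred log2 levels 0.23). Capitals mark the TATA box letters TATAAA.
Ccl8: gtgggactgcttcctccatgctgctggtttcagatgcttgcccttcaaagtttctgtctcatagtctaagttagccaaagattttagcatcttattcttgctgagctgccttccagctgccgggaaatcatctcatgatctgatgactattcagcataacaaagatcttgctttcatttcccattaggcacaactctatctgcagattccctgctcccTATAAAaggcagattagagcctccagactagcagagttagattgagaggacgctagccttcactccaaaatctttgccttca
Ccl12: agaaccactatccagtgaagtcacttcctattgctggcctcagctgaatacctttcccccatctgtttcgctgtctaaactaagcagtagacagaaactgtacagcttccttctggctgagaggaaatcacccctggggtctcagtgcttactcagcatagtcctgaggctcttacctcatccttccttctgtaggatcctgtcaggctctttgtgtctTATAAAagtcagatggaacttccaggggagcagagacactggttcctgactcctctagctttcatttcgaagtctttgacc
The match begins 32 bases before the start in Ccl8 and 31 bases before it in Ccl12. TATAAA on either strand was found in 13.6% of the 32851 promoter windows of that length. The searches also covered a kB form (in 50.8% of windows), an interferon-stimulated response element (3.44%), a GAS element (TTCNNNGAA, 8.3%), a STAT6 form (6.95%) and AP-1 (TGANTCA, 7.81%), on both strands. None of these letters is in the windows of Ccl3, Ccl8 or Ccl12.

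Ccl2, Ccl7, Ccl8 and Ccl12 separated the groups once set against the leukocyte RNA of each tumor. Among control tumors 1, 2 and 3 the mean log2 CPM of 8 pan-leukocyte genes (Ptprc, Cd52, Cd53, Coro1a, Laptm5, Lcp1, Itgb2 and Tyrobp) was 5.53, 6.21 and 6.77, the same order as the 4 chemokines. In ATM KO tumors 1, 2 and 3 it was 6.48, 6.16 and 6.53. Ccl2 relative to that list, as a difference of log2 levels, was -0.44, -0.67 and -0.74 in control and -1.71, -1.41 and -0.93 in ATM KO tumors. For Ccl7 it was -0.45, -0.75 and -0.67 against -1.48, -1.55 and -1.05, and for Ccl12 -2.75, -2.84 and -2.76 against -3.80, -3.13 and -3.53. Ccl8 followed with -0.73, -0.56 and -0.80 against -1.27, -1.05 and -0.99. On this scale every ATM KO tumor lay below every control tumor for each of these 4 genes. Mean differences were -0.74 for Ccl2 and Ccl7, -0.70 for Ccl12 and -0.40 for Ccl8.

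Ccl5 lay apart in the other direction, at -2.76, -2.97 and -3.55 in control and -1.89, -2.26 and -2.54 in ATM KO tumors. Ccl3, Ccl4, Ccl17 and Ccl22 overlapped. So 5 of 9 tested members had groups that do not overlap relative to the leukocyte list, where 5.55% of all genes tested did. That share is no baseline for chemokines that leukocytes make, because the subtraction adds the spread of the leukocyte list to every gene that does not follow it. The 4 lower members lie in 1 stretch of chromosome 11 and are not independent of each other. Endothelial, neutrophil and immediate early genes also had negative median log2 fold changes (-0.55, -0.56 and -0.29). So did fibroblast (-0.28), mast cell (-0.74), B cell (-1.82), adipocyte (-2.89) and, barely, monocyte and macrophage genes (-0.024). The 6 endothelial genes summed to 166 to 277 CPM in control and 131 to 156 CPM in ATM KO tumors, and the 7 immediate early genes to 215 to 265 and 147 to 309 CPM. The 6 neutrophil genes summed to 10.1 to 36.5 CPM in control and 17.5 to 18.8 CPM in ATM KO tumors. No gene of the endothelial, immediate early and neutrophil lists was at 0. The part of any of these marker lists in the lower Ccl2, Ccl7, Ccl8 and Ccl12 values was not tested. Relative to 12 monocyte and macrophage genes, the same 5 genes lay apart in the same directions. Differences were -0.62, -0.62, -0.29 and -0.59 for Ccl2, Ccl7, Ccl8 and Ccl12 and 0.98 for Ccl5. The 12 genes summed to 641 to 1743 CPM in control and 1163 to 1495 CPM in ATM KO tumors, with none at 0. Their mean log2 level was 5.36, 6.29 and 6.71 in control and 6.08, 6.05 and 6.54 in ATM KO tumors. That is close to the pan-leukocyte pattern, so the scales are not independent. How many of all genes lie apart on this scale was not computed. An edgeR fit with the leukocyte level of each tumor as a covariate, added after the data were seen, called 0 of the 9, against 3.45% of all genes tested. In it 5 members had an unadjusted p below 0.05, as did 23.4% of all genes tested: Ccl5 (1.02 ± 0.22, adjusted p = 0.0625), Ccl7 (-0.70 ± 0.17, 0.0798), Ccl8 (-0.39 ± 0.11, 0.111), Ccl12 (-0.65 ± 0.20, 0.119) and Ccl2 (-0.66 ± 0.23, 0.163).

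**Figure D2:**
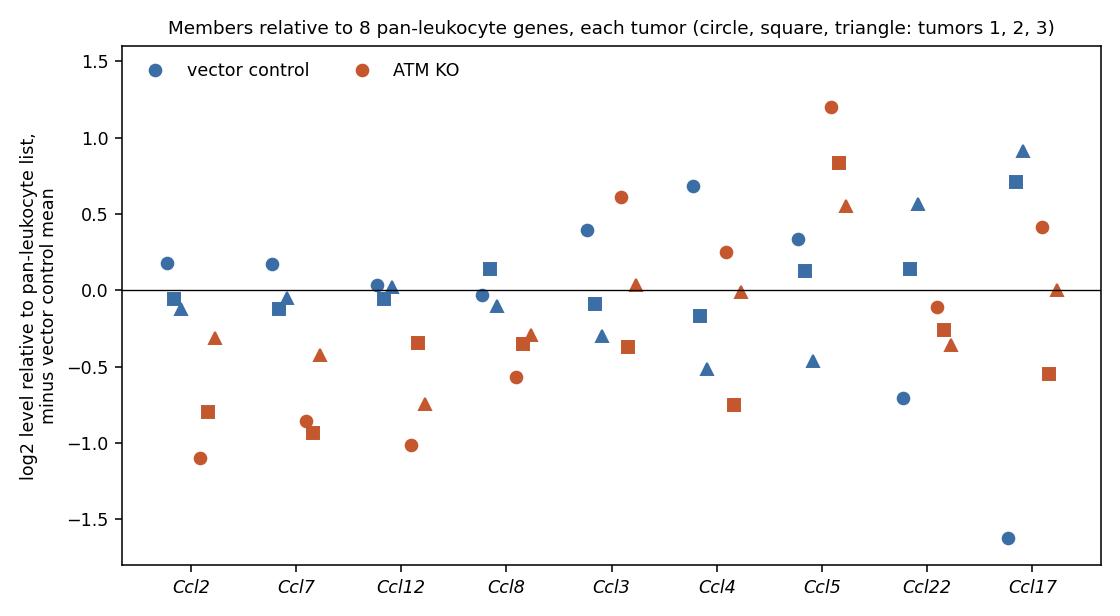
Log2 level of each tested member relative to the mean of 8 pan-leukocyte genes, minus the control mean of that member, for each tumor; circles, squares and triangles are tumors 1, 2 and 3. For Ccl2, Ccl7, Ccl12 and Ccl8 all 3 ATM KO tumors lie below the 3 control tumors, and for Ccl5 they lie above.

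As counts of Ccl5 per count of Ccl2, the balance was 0.198, 0.202 and 0.141 in control and 0.884, 0.556 and 0.327 in ATM KO tumors. The ratio of Ccl5 to Ccl12 was 0.994, 0.915 and 0.576 in control and 3.79, 1.84 and 2.00 in ATM KO tumors. Both ratios separated the groups. Ccl5 alone already did, and Ccl2 and Ccl12 had negative log2 fold changes, so the ratios restate these differences and are no further evidence. The ratios compare the same genes with each other in a tumor, so library scaling does not enter them.

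Ccl22 and Ccl17, ligands of Ccr4 that dendritic cells and macrophages make, lie near each other on chromosome 8 and had the widest spread among control tumors relative to the mean of the gene, of the 9 tested members. Ccl22 (94745590 to 94751699) was at 1.68, 4.98 and 9.98 CPM in control and 5.08, 3.62 and 4.41 CPM in ATM KO tumors. Ccl17 (94810453 to 94812036) was at 0.044, 0.914 and 1.61 CPM in control tumors, from 1, 20 and 39 counts, and at 0.902, 0.322 and 0.684 CPM in ATM KO tumors, from 22, 9 and 20 counts. Control tumor 1 was the lowest and control tumor 3 the highest for both, and all ATM KO tumors lay between them. Log2 fold changes were -0.34 ± 0.59 for Ccl22 (95% interval -1.78 to 1.09, edgeR adjusted p = 0.802) and -0.44 ± 0.93 for Ccl17 (-2.71 to 1.83, 0.846), and without control tumor 3 they were 0.40 and 0.42. The median log2 fold change of the 74 tested genes between 90 and 100 Mb of this chromosome was -0.24, where that of the 119 genes between 80 and 90 Mb of chromosome 11 was 0.0020. Over all tested genes of chromosome 8 the median was -0.26, and over those of chromosome 11 it was 0.0082. The lower median is therefore not particular to the stretch that holds Ccl17 and Ccl22. The windows upstream of these neighbors, Ccl17 at chr8:94810203-94810502 and Ccl22 at chr8:94745434-94745733 (both plus strand), are shown because they hold different motif letters.
Ccl17: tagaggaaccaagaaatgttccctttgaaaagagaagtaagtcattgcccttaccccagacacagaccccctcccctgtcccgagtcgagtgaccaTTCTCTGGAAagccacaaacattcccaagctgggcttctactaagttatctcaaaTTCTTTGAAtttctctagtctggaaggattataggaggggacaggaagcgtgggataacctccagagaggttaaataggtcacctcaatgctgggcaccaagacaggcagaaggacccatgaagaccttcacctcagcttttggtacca
Ccl22: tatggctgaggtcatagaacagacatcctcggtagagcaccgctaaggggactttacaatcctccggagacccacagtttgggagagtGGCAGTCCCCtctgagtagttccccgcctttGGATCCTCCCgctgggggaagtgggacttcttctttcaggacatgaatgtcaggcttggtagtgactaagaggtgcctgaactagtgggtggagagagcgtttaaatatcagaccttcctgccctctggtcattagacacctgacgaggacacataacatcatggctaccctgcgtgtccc
Capitals mark, in Ccl17, the STAT6 form 154 bases and the GAS element 99 bases before the start, and in Ccl22 the kB form 162 and 131 bases before it. A match of letters is a description and no binding was measured.

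Ccl19, which draws Ccr7-bearing cells, was hardly read. Its locus on chromosome 4 (42754525 to 42756577) had 0, 2 and 2 counts in control and 0, 0 and 1 in ATM KO tumors, and the row on an unplaced scaffold had 0 in every tumor. A floor of 3 counts per tumor corresponds to 0.103 to 0.137 CPM here, so no fold is given. The counters for reads with several alignments are at 0 in all files, and near-identical copies of this gene may have lost reads that way. Ccl21a, Ccl21b and Ccl21c, which act on the same receptor and are also copied across that region, had 0 counts in all 6 tumors.

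**Figure D3:**
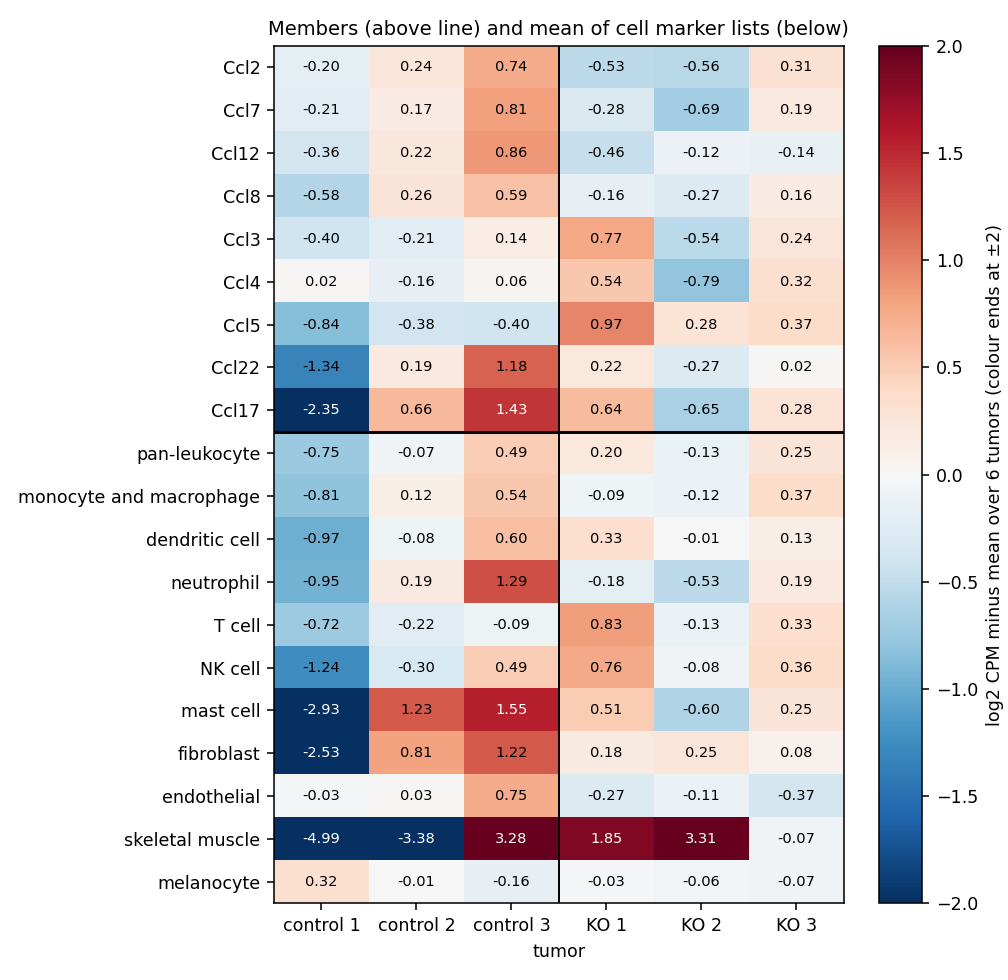
Log2 CPM of each member and of the mean of each cell marker list, minus the mean over the 6 tumors, with the values written in the cells (colour ends at ±2). Control tumor 1 is low and control tumor 3 high for Ccl22, Ccl17 and most leukocyte lists, while Ccl5 and the T cell list are both highest in ATM KO tumor 1.

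Expression per kilobase of exon allows levels of different genes to be compared. The most abundant CC ligand of the family on this scale was Ccl6, a rodent ligand of Ccr1 outside the 10 members, at 134 ± 79.8 CPM per kilobase in control and 108 ± 49.7 in ATM KO tumors (SD, n = 3). Ccl8 at 91.5 ± 34.5, Ccl7 at 60.9 ± 22.4 and Ccl2 at 42.7 ± 13.9 followed in the control tumors. The SDs are spreads between tumors, and within every tumor Ccl8 lay above Ccl7 and Ccl7 above Ccl2. Ccl6 lay above Ccl8 in all tumors but control tumor 1. Ccl12 at 20.5 ± 8.67 came next among the members, followed by Ccl5 at 8.81 ± 1.53, Ccl4 at 7.4 ± 0.597, Ccl3 at 6.60 ± 1.32, Ccl22 at 2.39 ± 1.80 and Ccl17 at 1.67 ± 1.53. In ATM KO tumors Ccl5 reached 19.0 ± 5.28, above the 13.9 ± 1.77 of Ccl12, while the order of Ccl8 (76.9 ± 12.5), Ccl7 (42.0 ± 12.9) and Ccl2 (30.0 ± 10.9) was as in the controls.

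Of all CC ligand transcripts summed per length, the 10 members made up 51.8% to 71.7% in control and 51.0% to 65.1% in ATM KO tumors. Ccl5 held 3.15%, 2.19% and 1.52% of that sum in control tumors and 8.13%, 5.45% and 3.48% in ATM KO tumors. The groups did not overlap, although the highest control and the lowest ATM KO tumor were close. Ccl8 held 21.9 ± 2.501% and 22.1 ± 2.57%, 19.2% to 24.3% over the 6 tumors, while the summed level ranged from 224 to 634 CPM per kilobase.

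**Figure D4:**
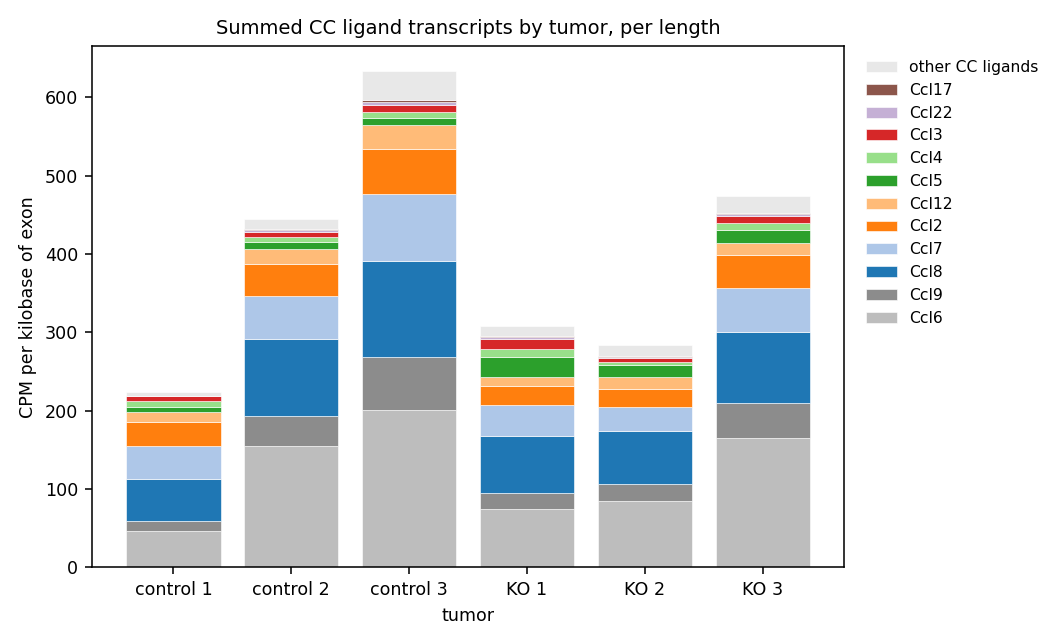
CPM per kilobase of exon of the CC ligands in each tumor, stacked, with the non-members Ccl6 and Ccl9 in grey at the bottom and the remaining ligands of the family in pale grey at the top. The sum runs from 224 in control tumor 1 to 634 in control tumor 3, with the ATM KO tumors between them, and Ccl5 takes a larger part in the ATM KO tumors.

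Other CC ligands and the CC receptors gave no call. Of 7 tested other ligands 0 passed in edgeR, in DESeq2 or in limma-voom and 0 had an unadjusted p below 0.05, with a median log2 fold change of -0.23. Ccl6 (-0.31 ± 0.60), Ccl9 (-0.45 ± 0.64) and Ccl11 (0.47 ± 1.02), the eosinophil attractant eotaxin, spread widely between control tumors. Ccl24, another eotaxin, held 4, 18 and 501 counts in control tumors 1, 2 and 3 and 26, 34 and 81 in ATM KO tumors, so its fitted value of -2.10 ± 1.61 rests on control tumor 3. Of 10 tested receptors and relatives 0 passed in any of these tools and 0 had an unadjusted p below 0.05, with a median of -0.14. DESeq2 gave no adjusted p for Ackr2 and Ccr8, nor for Ccl24 and Ccl27a among the other ligands, so these genes could not pass in it.

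Receptors of the members were read at widely different levels. Ccr2 was at 26.6, 55.4 and 199 CPM in control and 81.5, 78.0 and 86.7 CPM in ATM KO tumors (log2 fold change -0.19 ± 0.73, edgeR adjusted p = 0.922), and control tumor 3 was again the highest. Ccr1 (-0.55 ± 0.41), Ccr7 (0.16 ± 0.36) and Ccr8 (-0.25 ± 0.56) also overlapped between groups. Ccr4, the receptor of Ccl17 and Ccl22, had 5 to 15 counts per tumor and was not tested. Ackr2, a decoy receptor that takes up inflammatory CC chemokines, was at 0.487, 0.960 and 0.455 CPM in control and 0.410, 0.143 and 0.274 CPM in ATM KO tumors, from 4 to 21 counts per tumor. Its groups did not overlap, which held in either direction for 29.7% of all genes tested. The log2 fold change of Ackr2 was -1.20 ± 0.50 (edgeR adjusted p = 0.220).

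**Figure D5:**
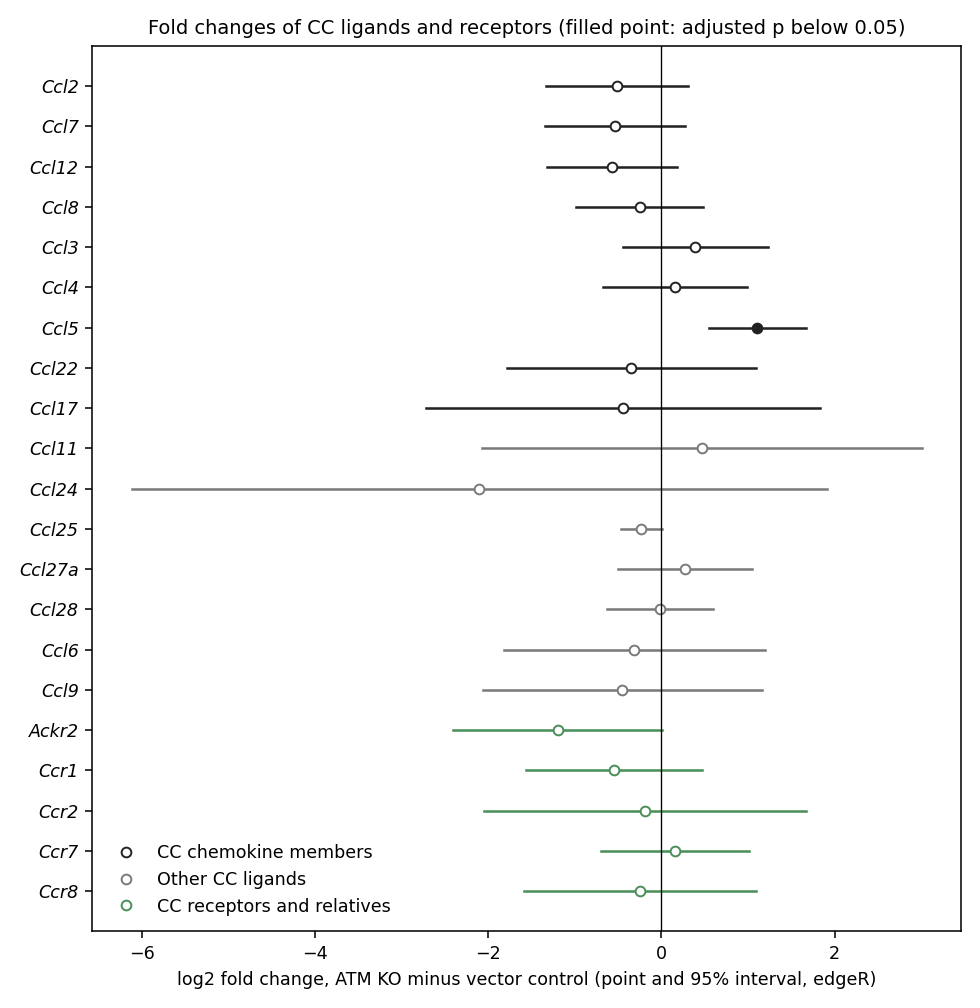
Log2 fold change, ATM KO minus vector control, of the tested members, other CC ligands and the 5 tested receptors and relatives named in the text, with 95% intervals from edgeR; a filled point has an adjusted p below 0.05. Only Ccl5 is filled, at 1.11, and the interval of every other gene shown reaches across 0.

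Cytokines and transcription factors known to induce CC chemokine genes gave no edgeR call either. Before adjustment, 4 of the 15 tested had p below 0.05, with 2 higher and 2 lower in ATM KO tumors, a share near the 23% of all genes tested. DESeq2 called 1, which was lower, as were 7.33% of all genes with that tool. Il1b, the inflammatory cytokine interleukin 1 beta, was the gene DESeq2 called, at 4.91, 3.75 and 3.19 CPM in control and 1.80, 1.32 and 2.57 CPM in ATM KO tumors (log2 fold change -1.05 ± 0.31, edgeR adjusted p = 0.112). Tnfaip3, which encodes the NF-kB inhibitor A20, was at 24.8 ± 2.46 and 16.1 ± 5.12 CPM (-0.62 ± 0.23, 0.178). The NF-kB subunit genes Rel (0.29 ± 0.10, 0.144) and Nfkb2 (0.26 ± 0.10, 0.209) were the higher ones before adjustment. Ifng, the gene of interferon gamma, was at 1.28 ± 0.591 and 2.13 ± 0.933 CPM (0.73 ± 0.45, 0.407).

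The protein-coding genes whose pattern over the 6 tumors came nearest to each member were found by the root mean square difference of mean-centred log2 levels, among 12359 genes. Ccl3 was nearest to Tnf, the gene of tumor necrosis factor, at 0.059, then to the NK cell receptor gene Klre1 at 0.13 and Tspoap1 at 0.14. Ccl5 was nearest to Sh2d2a, a T cell adaptor gene, at 0.13, then to the T cell surface gene Cd5 and to Rom1, both at 0.17. Among members, Ccl2 and Ccl7 were the closest to each other of all 36 combinations, at 0.13, and Ccl3 and Ccl4 came next at 0.23. Ccl7 was nearest to Srgn (0.093) and the macrophage scavenger receptor gene Msr1 (0.11), Ccl2 to Prrg3 (0.072) and Slfn4 (0.089), and Ccl12 to Kctd12b (0.064). Ccl8 was nearest to Tgfbr3 (0.065), with Ccdc125 (0.071) and the kinase gene Syk (0.072) close behind, and Ccl4 to Serpinb6b (0.17) and Tspoap1 (0.17). Ccl22 was nearest to Flt3, a receptor gene of dendritic cells, at 0.074, and Ccl17 to the mast cell protease gene Cma1 at 0.14, both genes low in control tumor 1. With 6 tumors and this many genes, near patterns are found by search alone, and the values are given as a description.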

How the data were processed

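RNA of 6 mouse tumors was read as gene counts, 3 vector control and 3 ATM KO, grouped by their titles. The authors deposited raw counts per gene. STAR, HTSeq, SAMtools, cutadapt and Trim Galore and the builds GRCm38 and mm10 are named, without versions or order, per the submitters' processing notes. No source used here gives the strand setting. No member shares exon bases with another gene of GENCODE M21, which gave positions and exon lengths. Reads outside genes (16.7% to 18.2%) and on several genes (1.21% to 1.38%) were left out.

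Genes were filtered with filterByExpr (minimum count 10, total 15), scaled by TMM and tested over the whole table with the quasi-likelihood test of edgeR 4.0.16 (robust dispersions, genotype as the term, common biological coefficient of variation 27.6%) in R 4.3.3. P-values were adjusted by Benjamini-Hochberg over 15696 genes (threshold 0.05). Fold changes are given ± SE. Log2 list levels use a prior count of 2. Libraries of a group differed by more than sampling noise (chi-square over its degrees of freedom 21.5 to 81.5). The test was checked on simulated counts. Named genes were the 10 members, list genes and, per member, up to 3 nearest coding genes of at least 1 CPM.

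Members and lists were chosen with earlier results of these data known. Alternatives were other scalings, filters, DESeq2 1.42.0, limma 3.58.1 (voom), non-robust dispersions, a replicate block, coding genes only and leaving out each tumor. 1 tested receptor gene is counted in its list and not reported here. Counting error and the spread of 3 tumors limit the precision.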

Additional observations from a re-analysis of the deposited data

How the results depend on the processing

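Over all genes, 347 higher and 431 lower calls became 920 and 1150 with DESeq2 and 0 and 0 with tumor number as a replicate block in edgeR (3004 genes at an unadjusted p below 0.05), and lower calls fell to 276 with the leukocyte level as a covariate, a setting added after the data were seen. Leaving out 1 tumor gave 0 to 587 higher and 2 to 622 lower. The labels state no pairing of tumors by number. Deviations of same-numbered tumors correlated at 0.044, -0.27 and -0.42, and those of the other combinations at -0.23 to 0.44. With so few tumors per group these values cannot settle a pairing, and the block is given only for completeness.

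The single call among the members, Ccl5, kept its direction in all settings. Its groups do not overlap, so leaving out a tumor could not have turned the direction, and this is no further evidence. The count of members called higher was 0 with library size alone (Ccl5 adjusted p = 0.0506), limma-voom (0.0679), non-robust dispersions (0.0544), the replicate block (0.174) and the leukocyte covariate (0.0625). Without any 1 tumor it was 0 to 0. At an unadjusted p below 0.05 each of these settings had at least 1 member. It was called with DESeq2, median-ratio scaling, both other filters and coding genes only. DESeq2 called 1 inducer lower (Il1b). Leaving out 1 tumor moved uncalled log2 fold changes over -0.52 to 0.028 for Ccl8, -0.11 to 0.46 for Ccl4, -0.77 to 0.40 for Ccl22 and -0.998 to 0.42 for Ccl17. Signs of uncalled members turned for Ccl8 (0.028), Ccl22 (0.40) and Ccl17 (0.42) without vector control tumor 3, for Ccl4 (-0.11) without ATM KO tumor 1 and for Ccl17 (0.35) with limma-voom. Of 63 leukocyte-relative values under alternatives, 63 moved by less than 1 SD. Leaving out 1 of 3 tumors cannot shift a group mean by that much, and the monocyte and macrophage list shifts every member by the same amount. The count is therefore no measure of stability. Signs of the leukocyte-relative values turned in some settings for Ccl3, Ccl4, Ccl17 and Ccl22, the members whose groups overlapped. With longest-transcript lengths 1 of 20 shares moved by more than 1 SD, that of Ccl7 in ATM KO tumors (10.5%).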
